A study of Mus musculus with 6 samples.

Results

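The replication-dependent histone genes of mouse microglia are described here. They are the 68 of 24411 rows of the deposited count table whose symbol begins with Hist1h, Hist2h, Hist3h or Hist4h, a rule that uses no measured value. RNA was sequenced from primary microglia, the macrophages that reside in the brain, taken from C57BL/6J mice at 8 weeks of age. One group was labelled Mir137 gKO, a knockout of the microRNA gene Mir137, with 3 libraries, and the other Mir137 gWT, its wild-type counterpart, with 3 libraries. The comparison asks what the loss of miR-137 does to the transcripts of these cells. The type of knockout allele is not given in the labels, and the design text mentions adult mice (n = 4) without tying any of them to a library, so the p-values measure only the spread between libraries, which may be technical.

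Replication-dependent histone genes encode the linker histone H1 and the core histones H2A, H2B, H3 and H4, which package newly made DNA, and most of them are transcribed in S phase. Their messenger RNAs lack introns and end not in a poly(A) tail but just after a short stem-loop, which the stem-loop binding protein SLBP holds. Some of these genes also give longer, polyadenylated transcripts, mainly in cells that have left the cycle. The molecule is labelled total RNA, and whether the libraries were made by poly(A) selection or by removal of ribosomal RNA is a point on which the sources used here are silent.

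The stem-loop itself is shown first because it is what these messages share and what sets how a library can capture them. A perfect match to the histone 3' stem-loop, a 16-base hairpin with a stem of 6 bases and a loop of 4 bases, was found in the annotated GENCODE M21 transcripts (GRCm38) of 46 of the 68 members, against 0.495% of 21810 other protein-coding symbols. It occurred in 8 spellings, and the 3 most frequent are written below 5' to 3' as DNA letters, with the paired bases of the stem in capitals.
The form in 26 members of the classes H1, H2A, H2B and H3, such as Hist1h1c on chromosome 13: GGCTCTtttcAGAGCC
The form in 7 members, all of them H4 genes, such as Hist1h4n on chromosome 13: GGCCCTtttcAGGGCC
The form in 6 members of the classes H1, H2B and H3, such as Hist1h2bk on chromosome 13: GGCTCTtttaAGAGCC
The H4 form differs from the first within the stem, and the third form differs from the first within the loop. The annotated transcript ran past the hairpin by at most 100 bases in 23 members, and by more than 100 bases in another 23, up to 4884 bases in Hist1h1d. In the first of these groups it ran past by 3 to 74 bases, with a median of 33. No match was found in the annotated transcripts of the remaining 22. Their models had a median of 408 bases, but some were long, with 2620 bases in Hist2h2be and 1156 bases in Hist1h2bc.

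The 68 genes lie in 4 clusters. The Hist1 cluster on chromosome 13 holds 54, the Hist2 cluster on chromosome 3 holds 10, the Hist3 cluster on chromosome 11 holds 3, and Hist4h4 stands alone on chromosome 6. By class there are 6 H1, 18 H2A, 19 H2B, 12 H3 and 13 H4 genes, and 1 of them, Hist3h2bb-ps, is named as a pseudogene.

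The 6 libraries held 14603884 to 17652976 counts, and the member counts together made up 0.0381% to 0.0487% of a gKO library, against 0.0437% to 0.0550% of a gWT library. One library, gKO replicate 3, lay far from the others, at 91.5 on a first principal component that carried 39.0% of the variance, where the other libraries lay between -37.7 and -3.45. Its genes deviated from the mean by transcript length, with short genes high (Spearman rho across genes -0.50 there and -0.04 to 0.30 elsewhere, where genes are no independent replicates). The fitted trend put the median histone member 0.73 above the mean on the log2 scale there, against -0.43 to 0.13 in the other libraries. The observed median deviation of the members was 0.351 there, but 0.386 in gWT replicate 2 and 0.465 in gWT replicate 3. In the remaining libraries it was -0.242 to -0.084. Mir137 itself had 0 counts in each of the 6 libraries, so this short transcript does not check the labels. Microglial markers were abundant in both groups, with a summed level of 45574 to 51695 in gKO and 44412 to 48053 in gWT, in CPM, read counts relative to library totals scaled by TMM, the unit of every level below. All 12 markers on that list passed the filter on low counts and none was called different. Neutrophil markers summed to 528 to 999 CPM in gKO, against 267 to 334 CPM in gWT, with 2 of 9 tested genes called higher. Markers of endothelial and mural cells summed to 400 to 470 CPM in gKO, against 724 to 924 CPM in gWT, and those of meningeal fibroblasts to 124 to 125 CPM in gKO, against 268 to 365 CPM in gWT, with 2 of 11 and 4 of 7 genes called lower. None of the markers on these 3 lists was at 0 in all libraries. On the monocyte list 2 of 7 genes were called, both higher in gKO, and on the astrocyte, neuron and erythroid lists none was called. The part of these other cells, and of gKO replicate 3, in the histone values was not tested, beyond the values given without that library.

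Few histone genes carried most of the signal. Per kilobase of the longest annotated transcript, and as a mean over the 6 libraries, Hist2h2aa1 stood highest at 197 CPM per kb, followed by Hist1h1c at 125, Hist1h2bc at 42.7, Hist1h2bg at 32.8 and Hist1h2ad at 13.7 CPM per kb. Hist1h1c, Hist2h2aa1 and Hist1h2bc together held 78.4% of the summed member CPM in gKO and 74.6% in gWT, as counts not divided by length. At the other end, 7 members had no count in any library. Of the 68 genes, 36 passed the filter on low counts and 32 did not. Because the level per kilobase is divided by the annotated length, a gene whose annotated transcript is longer than the one the cells make is set too low on that scale.

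**Figure D1:**
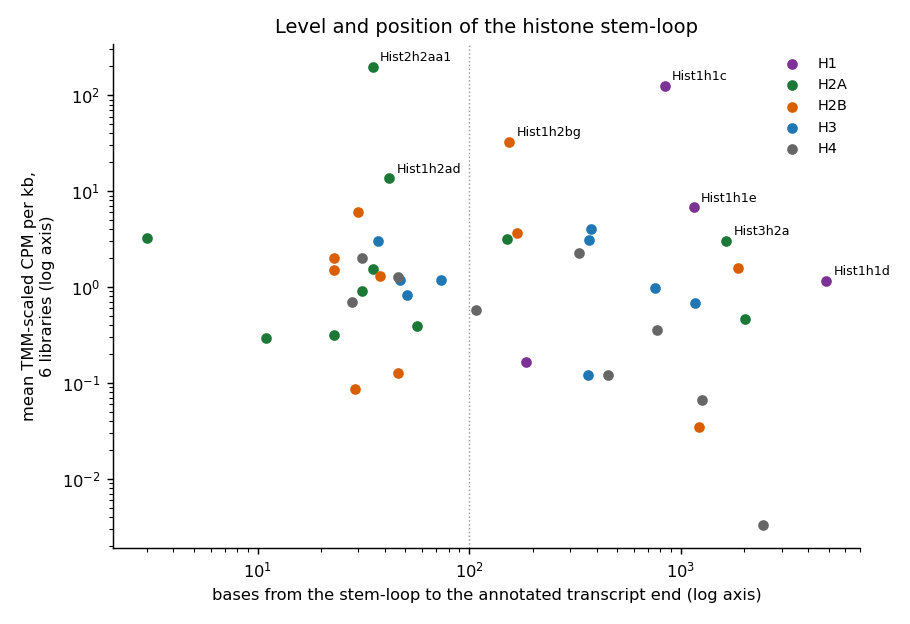
Mean TMM-scaled CPM per kb over the 6 libraries (vertical, log axis) against the number of bases from the stem-loop to the annotated transcript end (horizontal, log axis), for members with a stem-loop and a count above 0, coloured by class. Points lie on both sides of the dotted line at 100 bases, and the highest levels, Hist2h2aa1 at 197 and Hist1h1c at 125 CPM per kb, lie on opposite sides of it.

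Genes with and without a long annotated tail were expressed in like numbers. The filter was passed by 11 of the 23 genes with the stem-loop within 100 bases of the end, by 13 of the 23 with a longer annotated tail and by 12 of the 22 with no match. The median levels of these 3 groups over all their members were 1.19, 0.987 and 1.23 CPM per kb.

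No histone gene passed the main test. With edgeR's quasi-likelihood test and Benjamini-Hochberg adjustment over 13403 genes, 0 of 36 tested members had an adjusted p under 0.05, where 0.627% of all tested genes did. At an unadjusted p under 0.05 there were 3 members, Hist3h2a, Hist1h1c and Hist1h1e, all lower in gKO. That is 8.33% of the members tested, against 10.9% of all tested genes in either direction and 5.74% lower. The libraries of the groups did not overlap in CPM for 7 members, or 19.4%, against 21.3% of all tested genes. The 5 lower in gKO were Hist1h1c, Hist1h1d, Hist1h1e, Hist2h2be and Hist3h2a, or 13.9% against 11.3% of all tested genes. The 2 higher in gKO were Hist1h2bq and Hist1h2br, or 5.56% against 10% of all tested genes, although their values are identical and amount to 1 measurement. These shares lie near the background and are no result about the members. Log2 fold changes of gKO over gWT were negative in 22 and positive in 14 members, with a median of -0.16 against 0.01 over all tested genes, of which 49.1% were negative. DESeq2 called 1 of 57 members, Hist3h2a, against 2.46% of the genes it tested. limma-voom called 0 of 36, against 0.634% of genes, and, with sample weights, 2 of 36, Hist1h1e and Hist3h2a, against 3.42% of genes. Without gKO replicate 3, edgeR called 4 of 39 members, Hist1h1c, Hist1h1e, Hist1h3a and Hist3h2a, all lower in gKO, against 7.81% of genes in either direction and 3.82% lower. With each library's trend with transcript length removed, edgeR called 0 of 36, against 3.09% of genes.

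**Figure D2:**
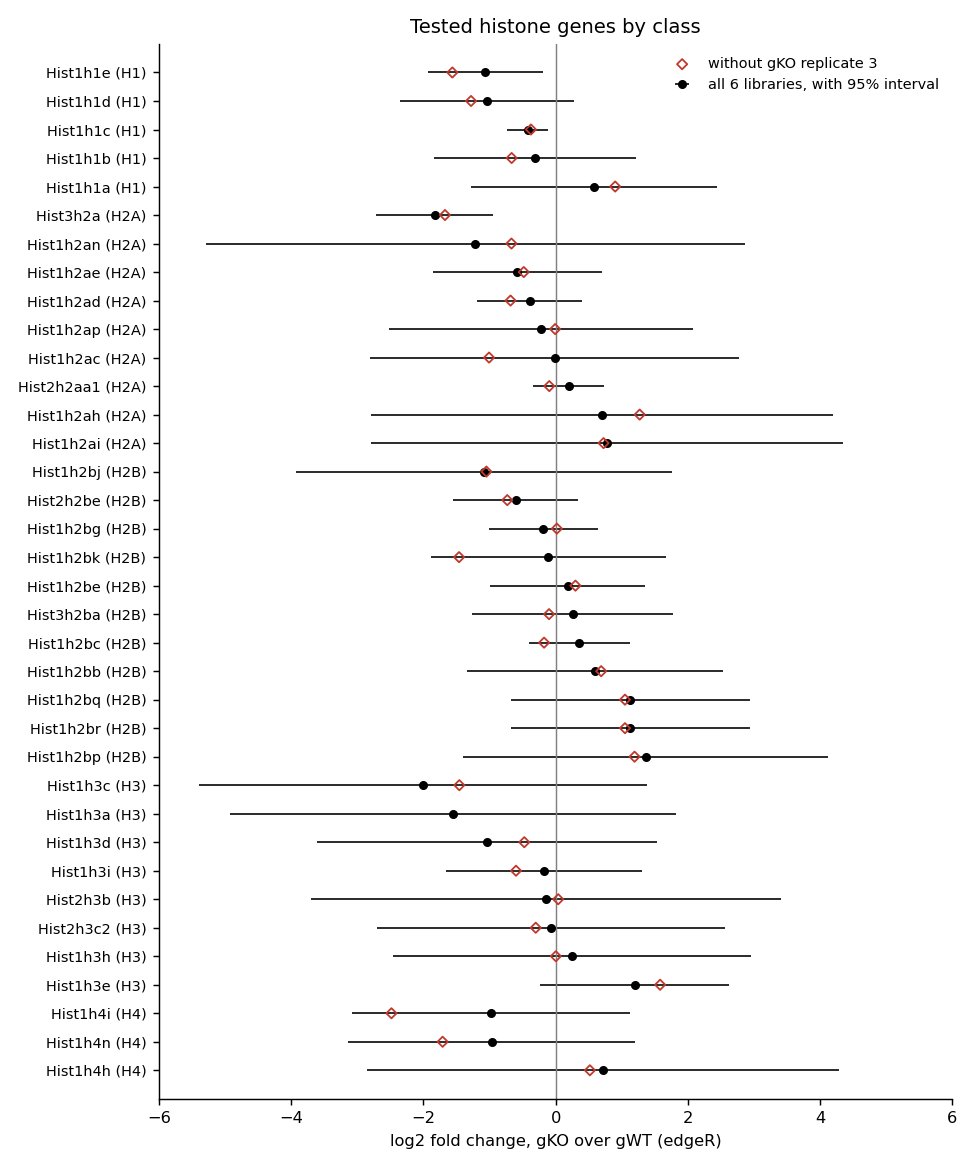
Log2 fold change of gKO over gWT for the 36 tested members by class, from edgeR. Black points with bars are the fit to all 6 libraries with 95% intervals, and open diamonds the fit without gKO replicate 3; the diamond of Hist1h3a, listed at 0 in the other gKO libraries, lies off the axis. The intervals of Hist3h2a, Hist1h1c and Hist1h1e lie wholly below 0, and most of the others span more than 1 on either side of their point.

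Most of these genes were measured with little precision. The 95% interval of the log2 fold change extended a median of 1.84 to either side for the members, against 0.58 for all tested genes. It was under 1 in 8 of 36 members (22.2%) against 75.8% of all tested genes. The median of the mean levels was 1.62 CPM for the members and 21.8 CPM for all tested genes. The interval of a typical tested member therefore reached further to either side than a change of 2-fold, which is 1 on the log2 scale.

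Linker histones come first among the classes. H1 binds the DNA between nucleosomes and at their entry and exit, and helps chromatin to fold. Hist1h1c (H1f2, chr13:23738808-23740367, plus strand of GRCm38), an H1 subtype made both in cycling and in resting cells, had 180, 168 and 153 CPM in the gKO libraries, against 195, 236 and 240 CPM in the gWT libraries. Every gKO library lay below every gWT library. The log2 fold change was -0.42 (SE 0.14, 95% interval -0.73 to -0.11, adjusted p = 0.306 by edgeR), and without gKO replicate 3 it was -0.37 (adjusted p = 0.0215 by edgeR). That was the 1 alternative of 15 that passed, with adjusted p from 0.0586 to 0.858 in the others by edgeR, DESeq2 and limma-voom. Of its 50-base windows, 91.5% occur in no other annotated gene.

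Hist1h1e (H1f4, chr13:23620629-23622558, minus strand) had 4.81, 7.34 and 13.4 CPM in gKO, against 14.4, 16.7 and 22.2 CPM in gWT. The groups did not overlap, though the highest gKO library, replicate 3, came close to the lowest gWT library. Its log2 fold change was -1.07 (SE 0.38, 95% interval -1.93 to -0.20, adjusted p = 0.356 by edgeR), and -1.56 without gKO replicate 3 (adjusted p = 0.0039 by edgeR). Limma-voom with sample weights passed as well (adjusted p = 0.0166), and over the other 13 of 15 alternatives the adjusted p was 0.0957 to 0.883. Its annotated exon overlaps that of Hist1h2be on the same strand, and 68.0% of its windows are its own. Hist1h2be had 38, 102 and 48.4 counts in the gKO libraries, against 81.4, 45.4 and 63.2 in those of gWT, and its groups overlapped.

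Hist1h1d (H1f3, chr13:23553262-23560686, plus strand) had 1.26, 8.50 and 7.28 CPM in gKO, against 9.96, 13.7 and 11.2 CPM in gWT. The groups again did not overlap, with gKO replicate 1 far below the other gKO libraries. The log2 fold change of -1.04 had an SE of 0.57 (adjusted p = 0.576 by edgeR). The annotated transcript of Hist1h1d has 7425 bases with the hairpin starting at base 2526. The RefSeq start used for its promoter lies inside the gene coordinates above. Its share of own windows refers to this long model. Hist1h1b (H1f5, chr13:21779883-21780625, minus strand), a subtype tied to dividing cells, had 0.744, 1.78 and 2.26 CPM in gKO, against 2.77, 1.60 and 1.58 CPM in gWT, and the groups overlapped (log2 fold change -0.32, SE 0.67). Hist1h1a (H1f1, chr13:23763666-23764406, plus strand) had 1.72, 1.65 and 0.636 CPM in gKO, against 0.471, 0.857 and 1.35 CPM in gWT, with overlap (log2 fold change 0.58, SE 0.81). The testis-specific Hist1h1t had 16 counts in gWT replicate 2 and 0 in every other library.

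Summed over the 6 genes, H1 reached 188, 187 and 177 CPM in gKO, against 223, 269 and 276 CPM in gWT. The gKO mean was 184 ± 6.24 CPM and the gWT mean 256 ± 29.2 CPM (SD, n = 3 each), a ratio of 0.718, and the groups did not overlap. Hist1h1c makes up most of this sum. Without it the H1 sum was 8.53, 19.3 and 23.5 CPM in gKO, against 27.6, 33.7 and 36.4 CPM in gWT, a ratio of 0.526 with no overlap. The core histones together, H2A, H2B, H3 and H4, had 196, 238 and 337 CPM in gKO, against 198, 273 and 267 CPM in gWT, a ratio of 1.04 with overlap. Without gKO replicate 3 that ratio was 0.883, and the H1 ratio 0.732, so the direction of the core histone sum rests on that library. The gKO libraries other than replicate 3, at 188 and 187 CPM of H1, lay below every gWT library as well. The endothelial and mural, meningeal fibroblast and astrocyte markers also had lower sums in every gKO library than in any gWT library. For the 7 astrocyte markers the sum was 253 to 306 CPM in gKO, against 358 to 399 CPM in gWT, with 0 called by edgeR. The part of these markers' cells in the H1 values was not tested. H1 transcripts made up 41.7% of the summed member CPM in gKO and 51.0% in gWT, as shares of group means. The gKO share includes gKO replicate 3, with its 337 CPM of core histones. No p is given for these sums. The classes follow from the gene symbols, but these genes were taken up for study with earlier results known.

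**Figure D3:**
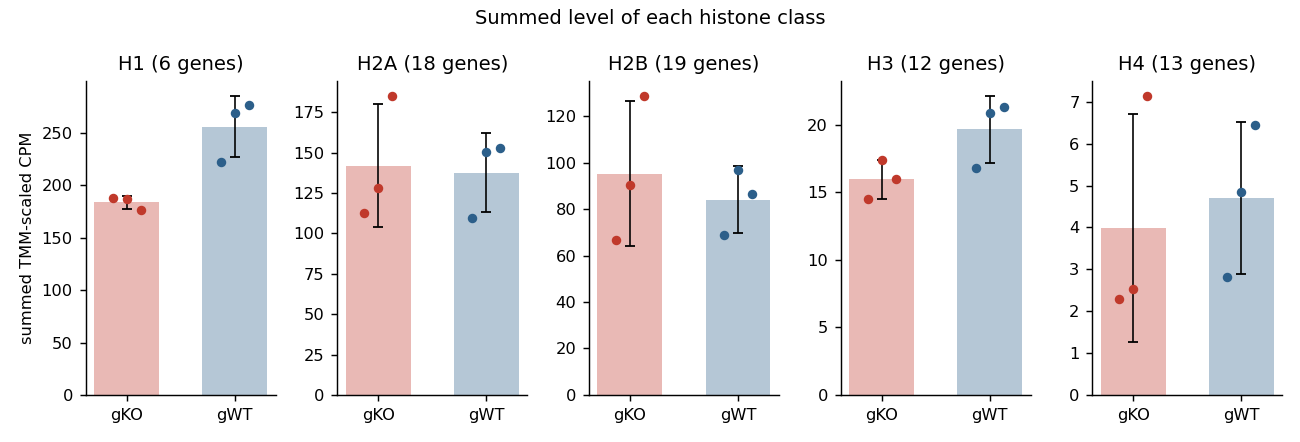
Summed TMM-scaled CPM of each histone class per library (points), with the mean (bars from 0) and SD (error bars) of 3 gKO and 3 gWT libraries; each panel has its own vertical scale. The H1 points of gKO, 177 to 188 CPM, all lie below those of gWT, 223 to 276 CPM, while the points of the other classes overlap and gKO replicate 3 is highest in H2A, H2B and H4.

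The promoters of the H1 genes are shown because this class is known for a sequence of its own. The letters AAACACA are the H1 box, CCAAT is the CCAAT box, TATAAA the TATA box and ATTTGCAT the octamer, each searched on both strands, and no match overlaps another in the stretches shown. The stretches below are the 140 bases before the RefSeq start (GRCm38.p6), 5' to 3' along the gene's strand, with matches to any of these motifs in capitals.
Hist1h1c, chr13:23738667-23738806, plus strand: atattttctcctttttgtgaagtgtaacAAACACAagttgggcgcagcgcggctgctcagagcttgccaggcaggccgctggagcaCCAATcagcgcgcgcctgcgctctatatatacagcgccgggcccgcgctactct
Hist1h1d, chr13:23554892-23555031, plus strand: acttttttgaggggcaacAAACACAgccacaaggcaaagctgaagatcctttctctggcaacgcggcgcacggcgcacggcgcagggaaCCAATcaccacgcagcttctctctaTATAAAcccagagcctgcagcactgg
Hist1h1e, chr13:23622559-23622698, minus strand: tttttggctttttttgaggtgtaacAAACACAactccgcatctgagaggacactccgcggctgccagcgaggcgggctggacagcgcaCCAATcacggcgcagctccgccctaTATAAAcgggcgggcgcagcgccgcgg
Hist1h1b, chr13:21780626-21780765, minus strand: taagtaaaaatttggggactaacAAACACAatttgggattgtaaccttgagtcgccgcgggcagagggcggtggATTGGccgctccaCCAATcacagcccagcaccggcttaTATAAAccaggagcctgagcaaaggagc
Hist1h1a, chr13:23763528-23763667, plus strand: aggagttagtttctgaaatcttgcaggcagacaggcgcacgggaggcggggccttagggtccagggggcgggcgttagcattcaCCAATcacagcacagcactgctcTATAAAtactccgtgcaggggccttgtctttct
The first 4 share 1 layout, an H1 box 51 to 64 bases ahead of the CCAAT box nearest the start, which itself ends 46 to 49 bases before the start. Hist1h1a has the CCAAT and TATA boxes but no AAACACA in this window. In Hist1h1c the letters at the TATA position read tatatata rather than TATAAA. These matches are descriptions of the sequence and say nothing of which factors bind there, and their relation to the fold changes was not tested.

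Over windows of 300 bases, from 250 before to 50 after the start, a RefSeq promoter was at hand for 61 members. CCAAT was present in 85.2% of them, against 37.3% of 32789 other promoters, and TATAAA in 57.4% against 13.5%. Matches on either strand and anywhere in the window were counted, so a TATAAA here need not stand at the gene's own TATA position. All H1, H2A, H2B and H3 promoters held a CCAAT, against 3 of 12 H4 promoters. The octamer, known from H2B promoters, was present in 21.3% of member promoters against 1.70% of the others, in 7 of 17 H2A and 6 of 16 H2B genes and in no other class. The H1 box was present in 14.8% of member promoters against 7.17% of the others, including 5 of 6 H1 genes.

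H2A and H2B, which form a dimer in the nucleosome, are often transcribed away from each other from 1 shared promoter. There are 13 such divergent pairs here, with 172 to 305 bases between the starts. The octamer, CCAAT and TATAAA counts of both classes therefore rest partly on the same DNA. Both partners passed the filter in 5 pairs. The fold changes of the partners had opposite signs in 4 of them, for example 1.36 for Hist1h2bp beside -1.22 for Hist1h2an on the log2 scale, and the same sign in 1, with -0.18 for Hist1h2bg beside -0.58 for Hist1h2ae.

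Hist3h2a (H2aw, chr11:58954685-58956830, plus strand) had the smallest unadjusted p among the members. It encodes an H2A protein in the small Hist3 cluster. Its level was 2.0, 4.46 and 2.12 CPM in gKO, against 9.01, 11.8 and 9.66 CPM in gWT, which rests on 35, 65 and 30 counts among the gKO libraries and 153, 207 and 165 among the gWT libraries. Even the highest gKO library lay below the lowest gWT library. The gKO mean was 2.86 ± 1.38 CPM and the gWT mean 10.2 ± 1.47 CPM (SD, n = 3 each). The log2 fold change was -1.83 (SE 0.38, 95% interval -2.71 to -0.95) with an adjusted p of 0.113 by edgeR. Of 15 alternatives, 3 gave an adjusted p under 0.05, which was 0.00254 by DESeq2, 0.0287 by limma-voom with sample weights and 0.0152 by edgeR without gKO replicate 3. In the other 12 it ranged from 0.0508 to 0.461, the highest values, 0.416 to 0.461 by edgeR, coming with 1 gWT library left out. With the trend of each library with transcript length removed, edgeR gave a log2 fold change of -1.72 (adjusted p = 0.0508). In the authors' deposited table it is the only member listed, among 201 genes lower in gKO, with a log2 fold change of -1.83, an SE of 0.433 and an adjusted p of 0.00227. No member is among the 75 genes higher in gKO in the authors' deposited table.

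Its annotated exons overlap those of Trim17, a ubiquitin ligase gene, on the same strand, and 68.5% of its windows are its own. Trim17 had 0 counts in all 3 gKO libraries, against 0, 3 and 0 counts in gWT. Its divergent partner Hist3h2bb-ps had 0 counts in the gKO libraries, against 6, 8 and 8 counts in gWT, and did not pass the filter. The third gene of the cluster, the H2B gene Hist3h2ba, had 3.15, 0.686 and 3.53 CPM in gKO, against 2.12, 2.29 and 1.76 CPM in gWT, with overlap. As a sum, the cluster reached 5.15, 5.14 and 5.66 CPM in gKO, against 11.5, 14.6 and 11.9 CPM in gWT, a ratio of 0.420 that rests on Hist3h2a.
The 140 bases before the start of this gene, whose window holds an octamer on the opposite strand and a CCAAT on each strand, all in capitals, are given in the same way.
Hist3h2a, chr11:58954545-58954684, plus strand: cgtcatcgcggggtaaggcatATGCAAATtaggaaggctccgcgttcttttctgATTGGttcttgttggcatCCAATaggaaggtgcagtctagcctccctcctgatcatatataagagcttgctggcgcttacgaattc

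The gKO and gWT libraries overlapped in every other tested H2A gene. Hist2h2aa1 (chr3:96245497-96246082, plus strand), the member highest per kilobase, had 94.6, 108 and 167 CPM in gKO, against 84.9, 117 and 121 CPM in gWT. The groups overlapped and gKO replicate 3 was the highest library. The log2 fold change was 0.20 (95% interval -0.34 to 0.74) and turned to -0.10 without gKO replicate 3. Only 10.6% of its windows are its own, and 89.4% recur in the overlapping locus Gm20634. The summed counts of Hist2h2aa1 and Hist2h2aa2 were 1653, 1581 and 2368 in gKO, against 1475, 2055 and 2114 in gWT, again with overlap. Hist1h2ad had 6.46, 4.70 and 9.30 CPM in gKO, against 6.59, 11.5 and 8.60 CPM in gWT (log2 fold change -0.39, SE 0.35). Hist1h2ai was listed at 0 in gKO replicate 1 and gWT replicate 1 and reached 2.63 CPM in gKO and 1.44 CPM in gWT. Hist1h2an was listed at 0 in gKO replicates 2 and 3 and in gWT replicate 1, with 0.961 CPM in the remaining gKO library and up to 1.65 CPM in gWT.

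Of the 11 tested H2B genes, 7 had a positive and 4 a negative log2 fold change, with the identical values of Hist1h2bq and Hist1h2br counted under both names, and none was called. Hist1h2bc (chr13:23684199-23692908, plus strand), behind Hist2h2aa1 and Hist1h1c in level per kilobase, had 34.7, 42.4 and 89.3 CPM in gKO, against 38.1, 47.7 and 43.7 CPM in gWT. A single library, gKO replicate 3, lay above all others, and the remaining gKO libraries lay within or below the gWT range. Its log2 fold change of 0.36 (SE 0.33) became -0.17 without that library. Hist1h2bg had 16.4, 27.7 and 12.8 CPM in gKO, against 13.0, 26.4 and 25.1 CPM in gWT, with overlap (log2 fold change -0.18, SE 0.36). Hist2h2be, whose 50-base windows are all its own, had 2.0, 4.94 and 4.31 CPM in gKO, against 5.30, 6.74 and 5.04 CPM in gWT. Its groups were separate by a small margin, with a log2 fold change of -0.61 (SE 0.41, 95% interval -1.55 to 0.34).

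The pair Hist1h2bq and Hist1h2br shows how copies share counts. The deposited values of Hist1h2bq and Hist1h2br were identical in each library, 25.6, 22.7 and 25.4 counts in the gKO libraries, against 7.45, 23.1 and 7.88 in those of gWT, so they are 1 measurement written under both names. Hist1h2br holds 97.3% of the windows of Hist1h2bq. Their level of 1.47, 1.56 and 1.79 CPM in gKO lay above the 0.439, 1.32 and 0.462 CPM in gWT, with a log2 fold change of 1.13 (95% interval -0.68 to 2.94, adjusted p = 0.677 by edgeR). Hist1h2bp had 0.855, 1.23 and 1.41 CPM in gKO, against 0.412, 0.016 and 0.941 CPM in gWT, with overlap. Hist1h2bj had 0.920, 0 and 0.408 CPM in gKO, against 1.0, 1.47 and 0.433 CPM in gWT, also with overlap.

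The H3 copies of the Hist2 cluster took the counts in turn. Hist2h3b, Hist2h3c1 and Hist2h3c2 lie on chromosome 3 in the Hist2 cluster and none of them has more than 36.5% of its windows to itself. The locus Gm20634, which is not among the counted genes, holds 79.7%, 100% and 63.5% of their windows in that order. How many windows the copies share among themselves is not given. Hist2h3c2 (chr3:96238108-96239127, minus strand) had 24.5, 82 and 73.2 counts in the gKO libraries, against 112, 0 and 106 in those of gWT. In gWT replicate 2, where it was at 0, Hist2h3c1 had 129 counts, and in every other library Hist2h3c1 had 0. Together the trio had 82, 82 and 88 counts in the gKO libraries, against 112, 164 and 154 in those of gWT. In CPM that is 4.70, 5.62 and 6.22 in gKO, against 6.60, 9.37 and 9.02 in gWT, a ratio of 0.662 with no overlap, although the fold change of Hist2h3c2 alone was -0.07 (SE 1.15). No test is given for this sum, which was formed after its values were seen.

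**Figure D4:**
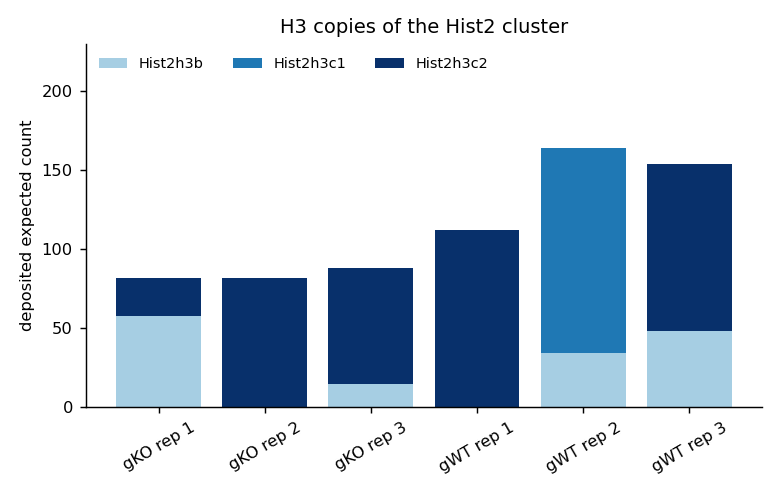
Deposited expected counts of Hist2h3b, Hist2h3c1 and Hist2h3c2 stacked from 0 for each library, gKO on the left and gWT on the right. The copy that takes the counts changes between libraries, while the stacks reach 82 to 88 counts in gKO and 112 to 164 counts in gWT.

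Of the Hist1 genes for H3, Hist1h3a was listed at 0 in gKO replicates 1 and 2 and had 35 counts in replicate 3, against 34.6, 51.5 and 36.7 counts in gWT. Its value therefore rests on which gKO library is read, and 50.5% of its windows are its own. Hist1h3c had 0, 13 and 0 counts in the gKO libraries, against 27.3, 23.7 and 11 in those of gWT. Hist1h3e went the other way, with 3.89, 5.62 and 1.34 CPM in gKO, against 1.30, 1.26 and 2.17 CPM in gWT, and its groups overlapped (log2 fold change 1.20, SE 0.62, adjusted p = 0.548 by edgeR). H3 as a class summed to 14.5, 17.4 and 15.98 CPM in gKO, against 16.8, 20.9 and 21.3 CPM in gWT, with 1 gKO library above the lowest gWT library.

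Few reads fell on the 13 H4 genes, which summed to 2.29, 2.54 and 7.14 CPM in gKO, against 2.83, 4.86 and 6.44 CPM in gWT. Only 3 H4 genes passed the filter. Among them Hist1h4h had 0, 1.30 and 0.919 CPM in gKO, against 0, 0.686 and 0.644 CPM in gWT. The 14 tested members that the rule for naming genes left out had mean levels of 0.866 to 3.95 CPM and log2 fold changes of -1.04 to 0.70, 9 of them negative.

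**Figure D5:**
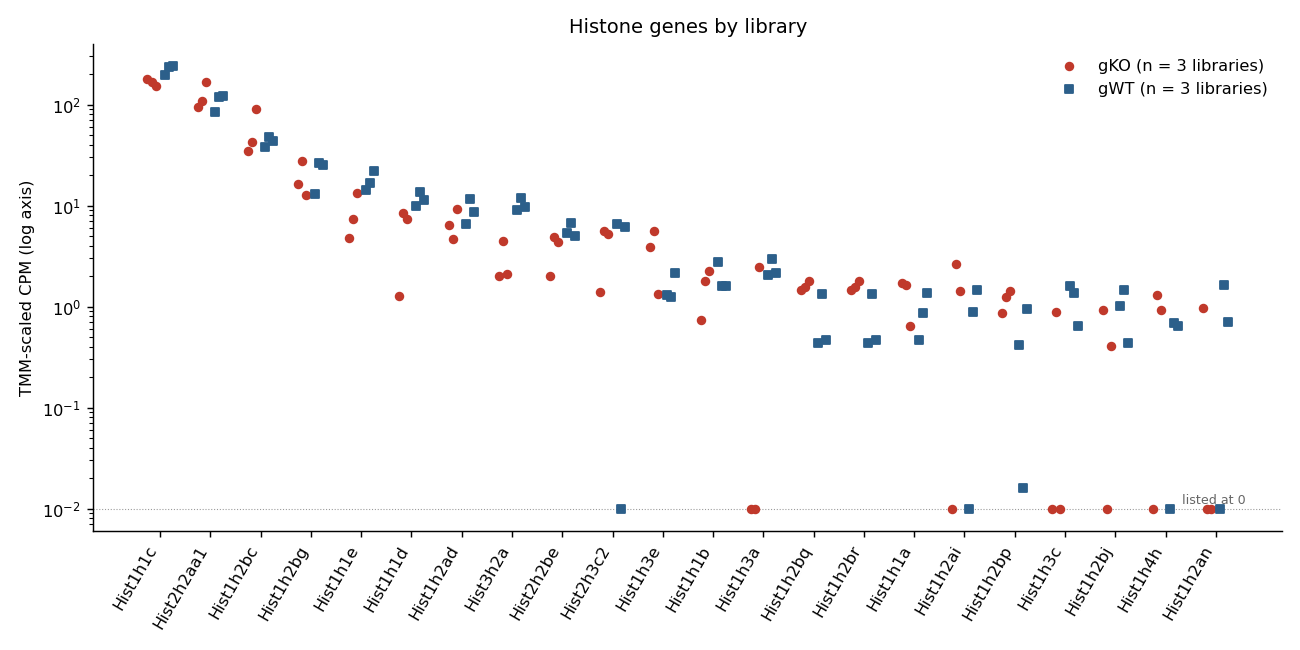
TMM-scaled CPM (log axis) of the 22 named members in each library, ordered by mean level, with gKO as red circles left of gWT as blue squares; points on the dotted line are listed at 0. The groups are apart in Hist1h1c, Hist1h1e, Hist1h1d, Hist3h2a and Hist2h2be, where gKO is lower, and in Hist1h2bq and Hist1h2br, where it is higher.

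Tested members differed in how much of their sequence was their own, and the part of this in their fold changes was not tested. The tested members had a median of 51.8% of windows to themselves, and 16 of 36 had under 50%. The 5 with at least 90% were Hist1h1a, Hist1h1b, Hist1h1c, Hist1h1d and Hist2h2be, with 4 negative fold changes and 1 positive. Grouped by the hairpin, members with a tail of more than 100 annotated bases beyond it summed to 219, 240 and 211 CPM in gKO, against 263, 328 and 333 CPM in gWT, a ratio of 0.725 with no overlap. Members ending within 100 bases of it summed to 111, 124 and 193 CPM in gKO, against 105, 145 and 147 CPM in gWT, a ratio of 1.08 with overlap. The longer group holds Hist1h1c and Hist3h2a, and the shorter holds Hist2h2aa1, so these sums restate the values of few genes.

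More members were at 0 in the gKO libraries, as were more genes overall. Between 37 and 39 members had a count above 0 in a gKO library, against 41 to 55 in a gWT library. Between 13832 and 14090 genes of the whole table did so in gKO, against 15012 to 15277 in gWT. There were 13 members at 0 in every gKO library alone and 1, Hist1h2bn, at 0 in every gWT library alone. Among rows with any count these are 21.3% and 1.64% of 61 members, against 7.55% and 1.98% of all 16524 such rows. Among rows with a count that did not pass the filter, they are 52.0% and 4.0% of 25 members, against 39.5% and 10.4% of 3121 rows. The highest total among the 13 was 129 counts, for Hist2h3c1, all of it in gWT replicate 2, followed by 83.9 counts for Hist2h2aa2. Both have 0.0% of their windows to themselves. The rest of the 13 had at most 22 counts in total. The part of shared sequence and of low counts in these zeros was not tested.

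The machinery that makes and handles these messages was read beside them. Of 18 genes for the transcription, 3'-end processing and decay of histone mRNA, all were tested and 0 were called by edgeR, with a median log2 fold change of 0.14. At an unadjusted p under 0.05 there were 2. Npat, a coactivator of histone gene transcription, averaged 40.0 ± 2.11 CPM in gKO, against 30.4 ± 2.31 CPM in gWT (SD over 3 libraries per group), with a log2 fold change of 0.39 (SE 0.15, adjusted p = 0.390 by edgeR). Cpsf2, a subunit of the complex that cuts the 3' end, averaged 40.1 ± 3.76 CPM in gKO, against 51.5 ± 3.79 CPM in gWT (SD over 3 libraries per group), with a log2 fold change of -0.36 (SE 0.15, adjusted p = 0.430 by edgeR). Slbp had 67.3, 47.9 and 91.6 CPM in gKO, against 48.8, 56.9 and 55.7 CPM in gWT, with overlap. Lsm11, part of the U7 particle that guides the cut, averaged 16.2 ± 2.29 CPM in gKO, against 13.0 ± 0.531 CPM in gWT (SD over 3 libraries per group).

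Genes of S phase and mitosis stood close in both groups. Their summed level was 1619 to 1642 CPM in gKO, against 1551 to 1638 CPM in gWT, and 0 of 30 were called by edgeR, with 0 at an unadjusted p under 0.05 and a median log2 fold change of 0.07. Without gKO replicate 3, edgeR called 1 higher and 1 lower, where 7.81% of all tested genes were called. These were Mcm6 (log2 fold change 0.36, adjusted p = 0.0359 by edgeR) and Gins2 (-1.27, adjusted p = 0.00477 by edgeR). In bulk samples, fewer cycling cells and less RNA per cell cannot be told apart. Histone chaperones, which carry histones to DNA, had 0 of 19 called and 0 at an unadjusted p under 0.05, with a median of 0.00. Replication-independent histone variants, most of which are made from polyadenylated messages also outside S phase, had 0 of 11 called and 0 at an unadjusted p under 0.05, with a median of -0.15. H2afx, the H2A variant phosphorylated at DNA breaks, whose gene is also known for a stem-loop message of S phase, averaged 87.0 ± 19.8 CPM in gKO, against 115 ± 6.29 CPM in gWT (SD over 3 libraries per group), with a log2 fold change of -0.40 (SE 0.18, adjusted p = 0.469 by edgeR). H1f0, the linker histone of resting cells, averaged 144 ± 13.2 CPM in gKO, against 165 ± 10.3 CPM in gWT (SD over 3 libraries per group), with a log2 fold change of -0.20 (SE 0.13). Without gKO replicate 3, edgeR called 4 of the 11 variants lower in gKO, H2afx, H2afz, H2afj and H2afy, where 3.82% of all tested genes were called lower. H2afz turned direction between these fits, with a log2 fold change of 0.11 over 6 libraries and -0.41 without that library.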

How the data were processed

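The authors deposited expected counts per gene symbol for 6 libraries, not normalized and partly not whole, and 2 lists of genes with, per the file headers, a mean normalized signal, a log2 fold change, 2 scores (its standard error and a test statistic), and a p-value, raw and adjusted. STAR 2.7.9a, RSEM, DESeq2, GRCm38 and mm10 stand in the submitters' processing notes. No source used here states the annotation, strand setting or library selection.

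For the tests, edgeR 4.0.16 (R 4.3.3) took the rounded expected counts (default low-count filter, TMM, robust quasi-likelihood test on genotype, Benjamini-Hochberg over all genes tested). An adjusted p under 0.05 called a gene. The edgeR fit was also run on simulated counts drawn from the real means and library sizes. No outlying library, trend with length or sharing of counts among copies was simulated, so that run does not bear on them. Alternatives were DESeq2 1.42.0, limma-voom 3.58.1 with and without sample weights, other scalings and filters, a replicate block, each library left out, and removal of each library's trend with transcript length.

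Identifiers and coordinates come from GENCODE M21, promoters from RefSeq (both GRCm38), by symbol. Members' windows of 50 bases were compared with all annotated transcripts. Values are given for members called, the 10 highest, the 6 largest fold changes each way, all tested H1 genes and those in the authors' lists. The symbol rule that sets the members, and the lists, were chosen with earlier results of these data known.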

Additional observations from a re-analysis of the deposited data

How the results depend on the processing

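The count of called members was 0 in the edgeR fit to 6 libraries, 1 with DESeq2, 2 with voom sample weights and 0 to 4 when a library was left out, the 4 without gKO replicate 3. Over all genes, 84 calls became 391 with DESeq2, 458 with voom sample weights, 414 with the length trend removed, and 0 to 1079 with a library left out: 1079 without gKO replicate 3, 5 without gKO replicate 1 or 2, and 0 without any 1 gWT library. With the replicate number as a block there were 18 calls and no member among them. The labels state no pairing of same-numbered libraries. Deviations of same-numbered libraries had correlations of 0.053, -0.048 and 0.015, within the -0.097 to 0.094 of the other combinations. With 3 libraries per group and gKO replicate 3 far from the others, these values cannot decide whether a pairing exists. The members' median log2 fold change of -0.16 was -0.67 with voom sample weights and -0.30 to 0.07 with a library left out. The summed level, a gKO over gWT ratio of 0.878, was 0.746 without the 3 highest members, an alternative chosen after seeing the data, and 0.801 to 0.933 with a library left out. Of 330 alternative values for the 22 named members, 307 kept their direction and side of the threshold, 7 passed it and 16 turned sign. With voom sample weights Hist2h2aa1 turned to -0.063, Hist1h2bc to -0.11, Hist1h2ai to -0.76, Hist1h4h to -0.68 and Hist2h3c2 to 1.91. Hist2h3c2 was 1.67 with voom and 0.37 with the replicate block, and Hist1h2bg was 0.048 with the length trend removed. With a library left out the log2 fold change ranged over -0.10 to 0.35 for Hist2h2aa1, -0.17 to 0.61 for Hist1h2bc, -0.56 to 0.020 for Hist1h2bg, -0.66 to 0.39 for Hist2h3c2, -0.15 to 1.62 for Hist1h2ai and -0.66 to 0.026 for Hist1h1b. The cause of these changes was not tested. Hist3h2a kept its direction throughout, from -2.30 to -1.63 with a library left out. The members' mean levels had a median of 1.62 CPM, and the parts of depth, spread between libraries and shared sequence in their wide intervals were not tested.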
